A study of Mus musculus with 28 samples.

Results

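The 48 genes described here encode the machinery of mitosis and of the passage from G2 into it: mitotic kinases and cyclins, the chromosomal passenger complex, the spindle checkpoint, kinetochore proteins, spindle motors, anaphase regulators, cytokinesis factors and condensins. They were chosen by symbol from a list, and all 48 were found among the 54354 genes of the deposited count table. They were measured by RNA-seq of poly(A)-selected RNA in 28 libraries from the small intestine of Lgr5-GFP mice, whose fluorescent reporter labels cells that make Lgr5, the receptor of intestinal stem cells. The 4 groups of 7 libraries are Lgr5-low cells on the control diet, Lgr5-low cells on the cystine diet, Lgr5-high cells on the control diet and Lgr5-high cells on the cystine diet. All groups carry the same Lgr5-GFP genotype, cystine consists of a pair of cysteines joined by a disulfide bond, and the labels used here give no age, dose or feeding time. The extraction protocol of the labels speaks of organoids while the design text speaks of populations isolated from small intestine, and which of them holds cannot be settled from the files. Whether each library of a group is from its own animal is not given in the labels, so every p-value measures only the spread between libraries, which may be technical.

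Dividing cells build up most of these transcripts in G2 and lose them after division, so their level in bulk RNA follows how many cells are close to mitosis as well as how much each cell makes. In the small intestine, Lgr5-expressing stem cells at the crypt base divide, and their progeny, the transit-amplifying cells, divide again before they differentiate. An Lgr5-low gate can therefore hold dividing progeny beside differentiated cells. Many promoters of mitotic genes carry a CHR element, the binding motif of the MuvB complexes that repress these genes in quiescence and activate them in G2 together with B-MYB and FOXM1, and CCAAT boxes bound by NF-Y.

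These motifs were searched in RefSeq promoter windows of GRCm38.p6, the build that mm10 names, running from 250 bases before to 50 bases after the start of transcription. The CHR element was taken as TTTGAA, which reads as TTCAAA on the other strand, or the palindrome TTCGAA, counted once. The CCAAT box was taken as CCAAT, which reads as ATTGG on the other strand. Of the 48 genes, 40 matched a window by symbol, with 43 windows in all. The 6 promoters below are shown because they hold both motifs with the most matches in sum among the members, ties taken in alphabetical order, and capitals mark the matches. Each is cut to 280 bases and runs 5′ to 3′ on the strand of its gene: Top2a at chr11:99024160-99024439 (minus strand), Ube2c at chr2:164769679-164769958 (plus strand), Hmmr at chr11:40733408-40733687 (minus strand), Ccnb2 at chr9:70421525-70421804 (minus strand), Cdca8 at chr4:124936888-124937167 (minus strand) and Cdk1 at chr10:69352883-69353162 (minus strand).
Top2a: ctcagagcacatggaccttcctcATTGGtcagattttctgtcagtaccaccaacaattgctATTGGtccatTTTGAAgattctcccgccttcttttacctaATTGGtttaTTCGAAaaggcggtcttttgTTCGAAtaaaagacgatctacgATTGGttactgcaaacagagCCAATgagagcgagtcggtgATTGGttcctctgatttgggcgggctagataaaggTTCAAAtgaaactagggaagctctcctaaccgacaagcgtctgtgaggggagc
Ube2c: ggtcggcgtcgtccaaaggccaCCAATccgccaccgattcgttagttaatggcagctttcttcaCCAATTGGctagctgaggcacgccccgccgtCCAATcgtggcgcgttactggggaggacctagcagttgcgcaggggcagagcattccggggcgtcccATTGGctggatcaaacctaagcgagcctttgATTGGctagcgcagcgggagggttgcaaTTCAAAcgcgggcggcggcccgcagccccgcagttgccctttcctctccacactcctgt
Hmmr: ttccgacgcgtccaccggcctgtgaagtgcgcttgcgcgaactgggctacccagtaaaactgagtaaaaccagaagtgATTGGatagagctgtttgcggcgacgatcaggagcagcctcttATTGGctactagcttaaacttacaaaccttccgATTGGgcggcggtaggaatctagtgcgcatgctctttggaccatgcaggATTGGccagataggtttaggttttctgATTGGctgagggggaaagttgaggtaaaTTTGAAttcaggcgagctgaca
Ccnb2: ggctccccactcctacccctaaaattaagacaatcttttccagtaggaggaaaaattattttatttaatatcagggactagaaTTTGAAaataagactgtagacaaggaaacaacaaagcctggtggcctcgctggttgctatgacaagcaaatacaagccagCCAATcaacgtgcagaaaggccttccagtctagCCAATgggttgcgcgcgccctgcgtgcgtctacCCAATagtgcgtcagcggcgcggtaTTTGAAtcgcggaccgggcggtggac
Cdca8: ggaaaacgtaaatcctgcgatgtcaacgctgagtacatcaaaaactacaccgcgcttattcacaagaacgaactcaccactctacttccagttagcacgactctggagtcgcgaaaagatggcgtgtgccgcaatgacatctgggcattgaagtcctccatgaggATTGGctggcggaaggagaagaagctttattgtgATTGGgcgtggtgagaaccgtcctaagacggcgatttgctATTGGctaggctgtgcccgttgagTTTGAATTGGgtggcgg
Cdk1: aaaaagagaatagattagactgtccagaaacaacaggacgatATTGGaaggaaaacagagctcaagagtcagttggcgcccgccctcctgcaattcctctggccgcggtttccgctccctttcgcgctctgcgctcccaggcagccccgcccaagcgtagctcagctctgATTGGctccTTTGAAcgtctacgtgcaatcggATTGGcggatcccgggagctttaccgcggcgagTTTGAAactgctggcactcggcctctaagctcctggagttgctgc

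Top2a, the topoisomerase that untangles chromosomes, had 4 CHR and 6 CCAAT matches in its window. Ube2c, the ubiquitin-conjugating enzyme of the anaphase-promoting complex, had 1 and 6, of which 2 CCAAT matches overlap on opposite strands, and Hmmr, a spindle-pole protein, had 1 and 5. Ccnb2 and Cdk1, which encode cyclin B2 and the kinase it activates, had 2 and 3 each. Cdca8, the passenger subunit borealin, had 1 and 4, and there a CHR match shares bases with a CCAAT match.

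At least 1 CHR match lay in the promoters of 32 of the 40 members (80.0%), against 21.7% of the 27025 genes with any window in the table and 17.2% of the 9436 genes that were also tested for expression. At least 1 CCAAT match lay in 32 members (80.0%), against 41.1% and 43.8%. Both kinds were present in 29 members (72.5%), against 8.61% and 7.24%. Among 36 matched S phase genes, which are transcribed earlier in the cycle, 16.7% had a CHR match, 63.9% a CCAAT match and 13.9% both. Among 41 matched genes with other mitotic roles, 63.4% had a CHR match, 63.4% a CCAAT match and 41.5% both, so that the motifs were frequent in mitotic genes outside the 48 as well. Median GC content was 59.0% in the member windows and 60.0% in those of all tested genes. The 47 CHR matches in the 43 member windows ran from position -185 to 44 with a median of -12, and 25 lay before the start site. The 82 CCAAT matches had a median of -65, and 78 lay before it. Sites in the overlapping windows of Bub3, Ect2 and Prc1 were counted once for each window. Birc5, Mad2l1, Nuf2, Nusap1 and Pttg1 had neither motif in the window, which says only that these letters were absent there. A match describes the sequence and was not tested for binding.

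**Figure D1:**
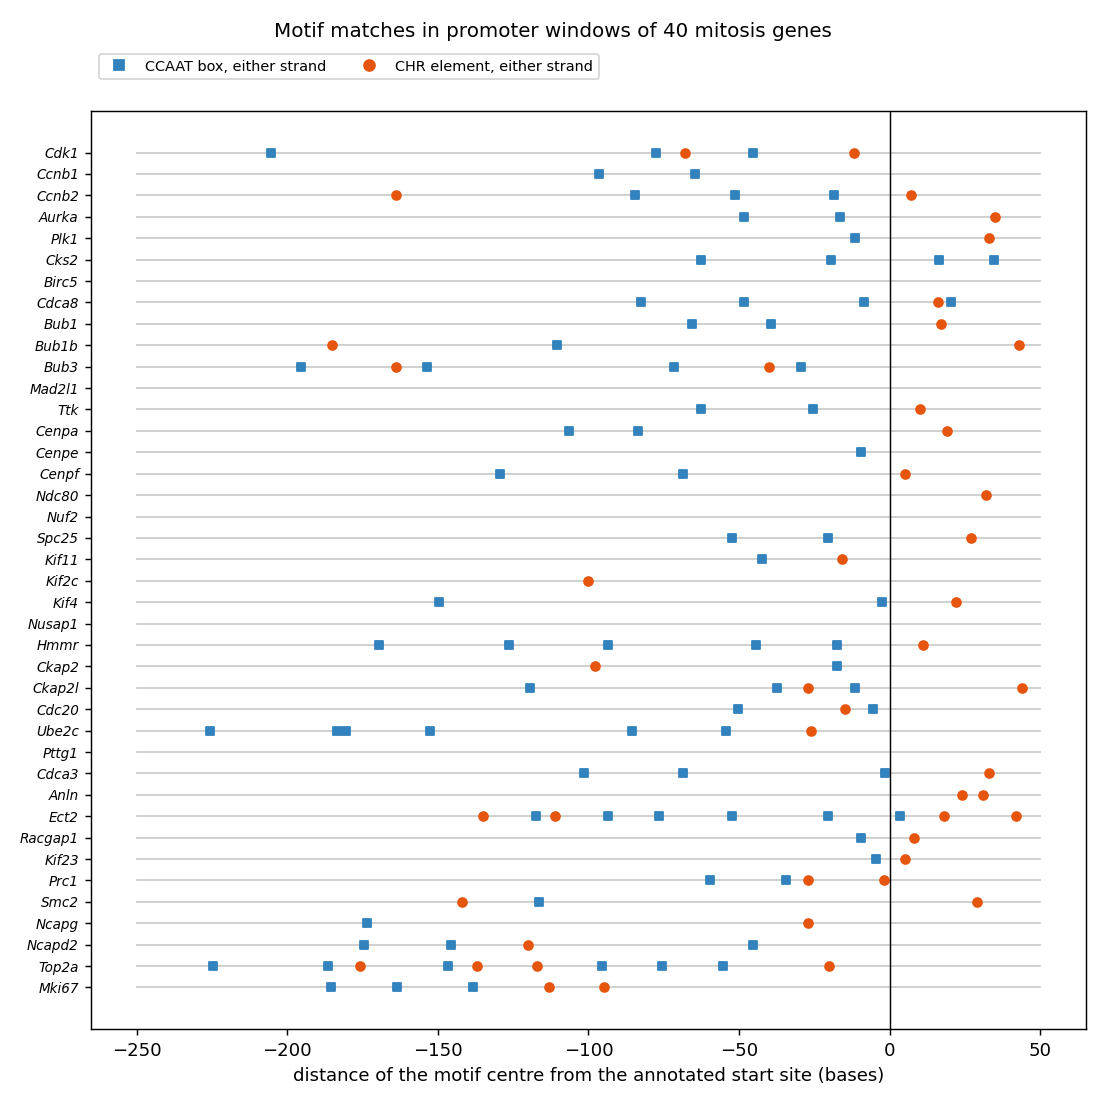
Positions of CHR and CCAAT matches (symbols) along the promoter window of each of 40 members (rows, grouped by role), in bases from the start of transcription on the horizontal axis. Genes with more than 1 annotated start have the matches of all their windows on 1 line. The median position is -65 for the CCAAT and -12 for the CHR matches, and 78 of 82 CCAAT and 25 of 47 CHR matches lie before the start.

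Library depth ran from 2.75 M to 21.5 M counts, and was lowest in Lgr5-high cells on cystine (median 5.32 M) and highest in Lgr5-high cells on control diet (median 15.4 M). Lgr5, the gene of the sort, stood at 21.5 to 45.1 CPM (counts normalised to library size, per M counts) in Lgr5-high and 0.214 to 10.04 CPM in Lgr5-low cells on control diet (log2 fold change 2.99 ± 0.43 SE, edgeR quasi-likelihood test, Benjamini-Hochberg adjusted p = 9.9e-05). Markers of other cells were present in every group: the summed level of 12 enterocyte markers was 4757 to 21346 CPM in Lgr5-low and 1493 to 10978 CPM in Lgr5-high cells on control diet, and Paneth markers had higher means in both. Goblet and enteroendocrine markers differed between the populations. The summed level of 8 goblet markers was 24883 to 54220 CPM in Lgr5-low and 6998 to 18830 CPM in Lgr5-high cells on control diet. Of the 8, 6 passed the test on each diet, lower in Lgr5-high cells. Of 9 enteroendocrine markers, 6 passed on control diet and 5 on cystine, also lower in Lgr5-high cells. All 7 Paneth markers had positive log2 fold changes, Lgr5-high against Lgr5-low, on both diets, and 0 passed. All 6 tested tuft markers had negative ones, of which 0 passed on control diet and 1 on cystine. The part of these cells in the members' population differences was not tested. The summed level of 12 macrophage markers was 23.8 to 683 CPM in Lgr5-high cells on cystine, against 28.96 to 60.8 CPM in Lgr5-high cells on control diet, 12.2 to 82.4 CPM in Lgr5-low cells on control diet and 34.6 to 154 CPM in Lgr5-low cells on cystine.

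All 48 members were expressed in every group and all passed the filter on low counts that left 12495 genes to test. Their mean level over the 28 libraries had a median of 42.6 CPM, against 8.83 CPM for all tested genes, and 10 of the 48 exceeded 100 CPM. The range was wide, from 3.26 CPM for Plk1 to 432 CPM for Birc5, and the 5 most abundant members held 40.8% of the members' counts. Divided by exonic length, the level was highest for Cks2, the small cyclin-dependent kinase subunit (359 CPM per kb), followed by Pttg1 or securin (143), Birc5 or survivin (127), Ccnb1 or cyclin B1 (75.1) and the microtubule binder Nusap1 (50.9). It was lowest for Cdc25c, the phosphatase that activates Cdk1 (0.857 CPM per kb), Anln or anillin (1.26) and the kinase Plk1 (1.48). Plk1 had 0 to 121 counts per library and Cdc25c 0 to 139, so that their values are the least precise of the set.

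The summed level of the 48 members was 2834 to 4208 CPM in Lgr5-low cells on control diet (mean 3485 ± 462, SD, n = 7) and 2640 to 3717 CPM in Lgr5-low cells on cystine (3354 ± 457). It was 3329 to 4260 CPM in Lgr5-high cells on control diet (3764 ± 326) and 3339 to 5284 CPM in Lgr5-high cells on cystine (4193 ± 694). The Lgr5-high groups had the higher means, and the ranges of all 4 groups overlapped. In bulk samples such as these, fewer cells of a type and less RNA per cell cannot be told apart.

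**Figure D2:**
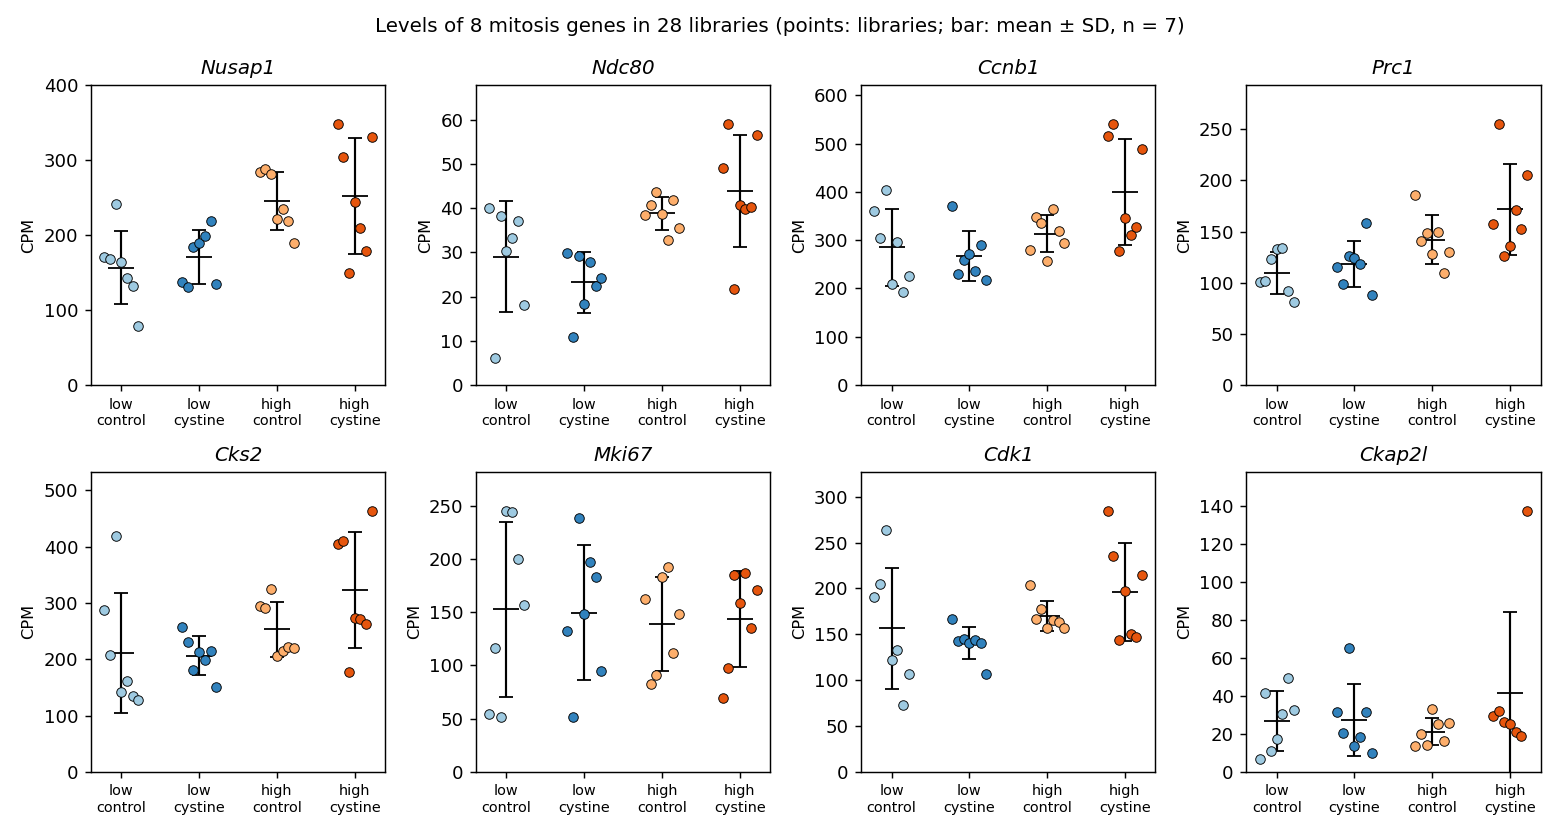
Level in CPM (vertical axes, from 0) of 8 members in each of the 28 libraries (points), by group on the horizontal axis, with the mean and SD of 7 libraries (bars). Nusap1, Ndc80, Ccnb1, Prc1 and Cks2 have higher means in the Lgr5-high groups, the 4 groups of Mki67 lie on one another, and the highest Ckap2l point (137 CPM) is a single Lgr5-high library on cystine.

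The first comparison asks whether Lgr5-high and Lgr5-low cells differ in mitotic transcripts on the control diet. Most members were slightly higher in Lgr5-high cells, and none of them passed the test in edgeR. Of the 48 members, 30 had a positive log2 fold change, the median was 0.14 (range -0.49 for Anln to 1.06 for Kif2c), and the median of all tested genes was -0.01. In edgeR's quasi-likelihood test 0 of 48 passed an adjusted p of 0.05, where 1.80% of all tested genes did (0.784% higher and 1.02% lower). DESeq2 also called 0, and limma-voom 1 (Nusap1, higher), where these tools called 1.42% and 3.38% of all tested genes higher. At an unadjusted p under 0.05 in edgeR, 8 were higher (Nusap1, Ttk, Bub1b, Prc1, Smc2, Ect2, Spc25 and Kif2c, 16.7%) and 0 lower, against 5.92% and 6.94% of all tested genes.

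Nusap1, a spindle protein that bundles microtubules (chromosome 2, 119618298 to 119651244, plus strand, ENSMUSG00000027306), came closest on the control diet. It stood at 78.5 to 242 CPM (median 165) in Lgr5-low and 190 to 289 CPM (median 235) in Lgr5-high cells. Every Lgr5-high library was above the Lgr5-low median, and the ranges overlapped. The log2 fold change was 0.65 ± 0.20 (SE), with an adjusted p of 0.0811 in edgeR, and the gene passed in 6 of the 41 settings tried.

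Of the spindle checkpoint, which holds back anaphase until chromosomes are attached, the genes Ttk and Bub1b had the next lowest p-values. Ttk was a low transcript at 2.02 to 12.1 CPM (median 7.93) in Lgr5-low and 9.14 to 23.0 CPM (median 12.1) in Lgr5-high cells on control diet (0.92 ± 0.36, edgeR adjusted p = 0.218). Bub1b stood at 6.65 to 28.1 CPM (median 16.6) and 18.2 to 38.5 CPM (median 24.2), a difference of 0.60 ± 0.24 (edgeR adjusted p = 0.240). Both overlapped between populations. Their partners in the checkpoint had values near 0, with log2 fold changes of -0.08 for Bub1, -0.08 for Bub3 and -0.03 for Mad2l1.

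By the roles assigned for this report, all 4 genes listed under anaphase and mitotic exit had negative values on the control diet (Cdca3, Cdc20, Ube2c and Pttg1, -0.29 to -0.21). Of the kinetochore genes 6 of 7, and of the kinase and cyclin genes 7 of 8, had positive ones. On cystine the counts of positive values were 2 of 4, 7 of 7 and 7 of 8 in the same order. None of these members passed the test. Pttg1, the securin that restrains separase, had the wider spread in Lgr5-low cells, at 192 to 479 CPM (median 234), against 196 to 327 CPM (median 271) in Lgr5-high cells. Birc5 of the passenger complex was as high in both, at 263 to 708 CPM (median 380) and 350 to 549 CPM (median 408), with a log2 fold change of -0.05 (95% interval -0.45 to 0.35).

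On the cystine diet 40 of the 48 members were positive, a count whose difference from that on the control diet was not tested. The median log2 fold change was 0.24 (range -0.95 for Cdc25c to 0.92 for Ndc80), against -0.04 for all tested genes. Again 0 of 48 passed an adjusted p of 0.05 in edgeR, where 2.64% of all tested genes did (1.10% higher and 1.54% lower). DESeq2 called 3 members (Ccnb1, Ndc80 and Prc1) and limma-voom 4 (Ccnb1, Ckap2, Cks2 and Ndc80), each of them higher in Lgr5-high cells, where these tools called 2.41% and 3.63% of all tested genes higher. At an unadjusted p under 0.05 in edgeR, 11 were higher (22.9%) and 1, Aurkb, lower (2.08%), against 6.80% and 8.72% of all tested genes. Of 11 tested macrophage markers, 10 passed in the same comparison, higher in Lgr5-high cells, with a median log2 fold change of 2.50. With a macrophage score as a term the members' median was 0.47 and 0 members passed.

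Ndc80, the kinetochore protein that grips microtubules (chromosome 17, 71496100 to 71526857, minus strand, ENSMUSG00000024056), had the lowest adjusted p of any member. On cystine it stood at 10.8 to 29.9 CPM (median 24.3) in Lgr5-low and 21.7 to 59.0 CPM (median 40.6) in Lgr5-high cells. Of the 7 Lgr5-high libraries, 6 were above the Lgr5-low median. The log2 fold change was 0.92 ± 0.27 (edgeR adjusted p = 0.0531), and the gene passed in 11 of the 41 settings tried. The other subunits of the same complex had smaller positive values of 0.50 for Nuf2, 0.44 for Spc25 and 0.36 for Spc24.

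Ccnb1, whose product switches on Cdk1 at mitotic entry (chromosome 13, 100778650 to 100786570, minus strand, ENSMUSG00000041431), stood at 219 to 371 CPM (median 260) in Lgr5-low and 278 to 541 CPM (median 346) in Lgr5-high cells on cystine. Every Lgr5-high library lay above the Lgr5-low median, and the ranges overlapped. The difference was 0.58 ± 0.18 (edgeR adjusted p = 0.0648). Cdk1 itself stood at 106 to 166 CPM (median 143) and 143 to 285 CPM (median 197), a difference of 0.48 ± 0.20 (edgeR adjusted p = 0.205).

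Cks2, which binds Cdk1 (chromosome 13, 51645232 to 51650660, plus strand, ENSMUSG00000062248), stood at 151 to 257 CPM (median 214) in Lgr5-low and 178 to 464 CPM (median 273) in Lgr5-high cells on cystine, a difference of 0.65 ± 0.22 (edgeR adjusted p = 0.111). Prc1, which bundles the microtubules of the central spindle before cytokinesis (chromosome 7, 80294450 to 80316259, plus strand, ENSMUSG00000038943), stood at 88.0 to 158 CPM (median 118) and 126 to 255 CPM (median 157), a difference of 0.54 ± 0.17 (edgeR adjusted p = 0.0705). All 7 Lgr5-high libraries exceeded the Lgr5-low median for Prc1 and 6 of 7 for Cks2. Nusap1 had a value of 0.56 ± 0.20 on this diet (edgeR adjusted p = 0.118).

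Aurkb, the kinase of the passenger complex, had the opposite sign on cystine: 16.8 to 32.8 CPM (median 23.3) in Lgr5-low and 7.33 to 26.3 CPM (median 16.6) in Lgr5-high cells, a log2 fold change of -0.58 ± 0.27 (edgeR adjusted p = 0.283). The ranges overlapped. Its partners Birc5, Incenp and Cdca8 had values of 0.12, 0.25 and 0.25.

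Mki67, the chromosome-surface protein used as the standard marker of proliferating cells (chromosome 7, 135689784 to 135716361, minus strand, ENSMUSG00000031004), had similar means in the 4 groups and a wide spread in each. On control diet it stood at 51.0 to 245 CPM (median 157) in Lgr5-low and 82.2 to 192 CPM (median 148) in Lgr5-high cells. On cystine it stood at 51.4 to 239 CPM (median 149) and 69.7 to 186 CPM (median 158). The population difference was -0.14 (95% interval -0.82 to 0.54) on control diet and -0.06 (-0.74 to 0.62) on cystine in edgeR, intervals too wide to show that the populations were alike. Top2a likewise had values of 0.14 (-0.33 to 0.61) and 0.24 (-0.23 to 0.71).

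Positive values on both diets were found for 28 of the 48 members (58.3%), against 31.7% of all tested genes. The 2 diets share no library in these comparisons, but 1 model of the spread was fitted to all. The 95% intervals, not adjusted for the number of genes, lay within a 2-fold change in either direction for 37 members on each diet and within 1.5-fold for 9 and 8. They were narrowest for Prc1 and widest for Plk1.

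**Figure D3:**
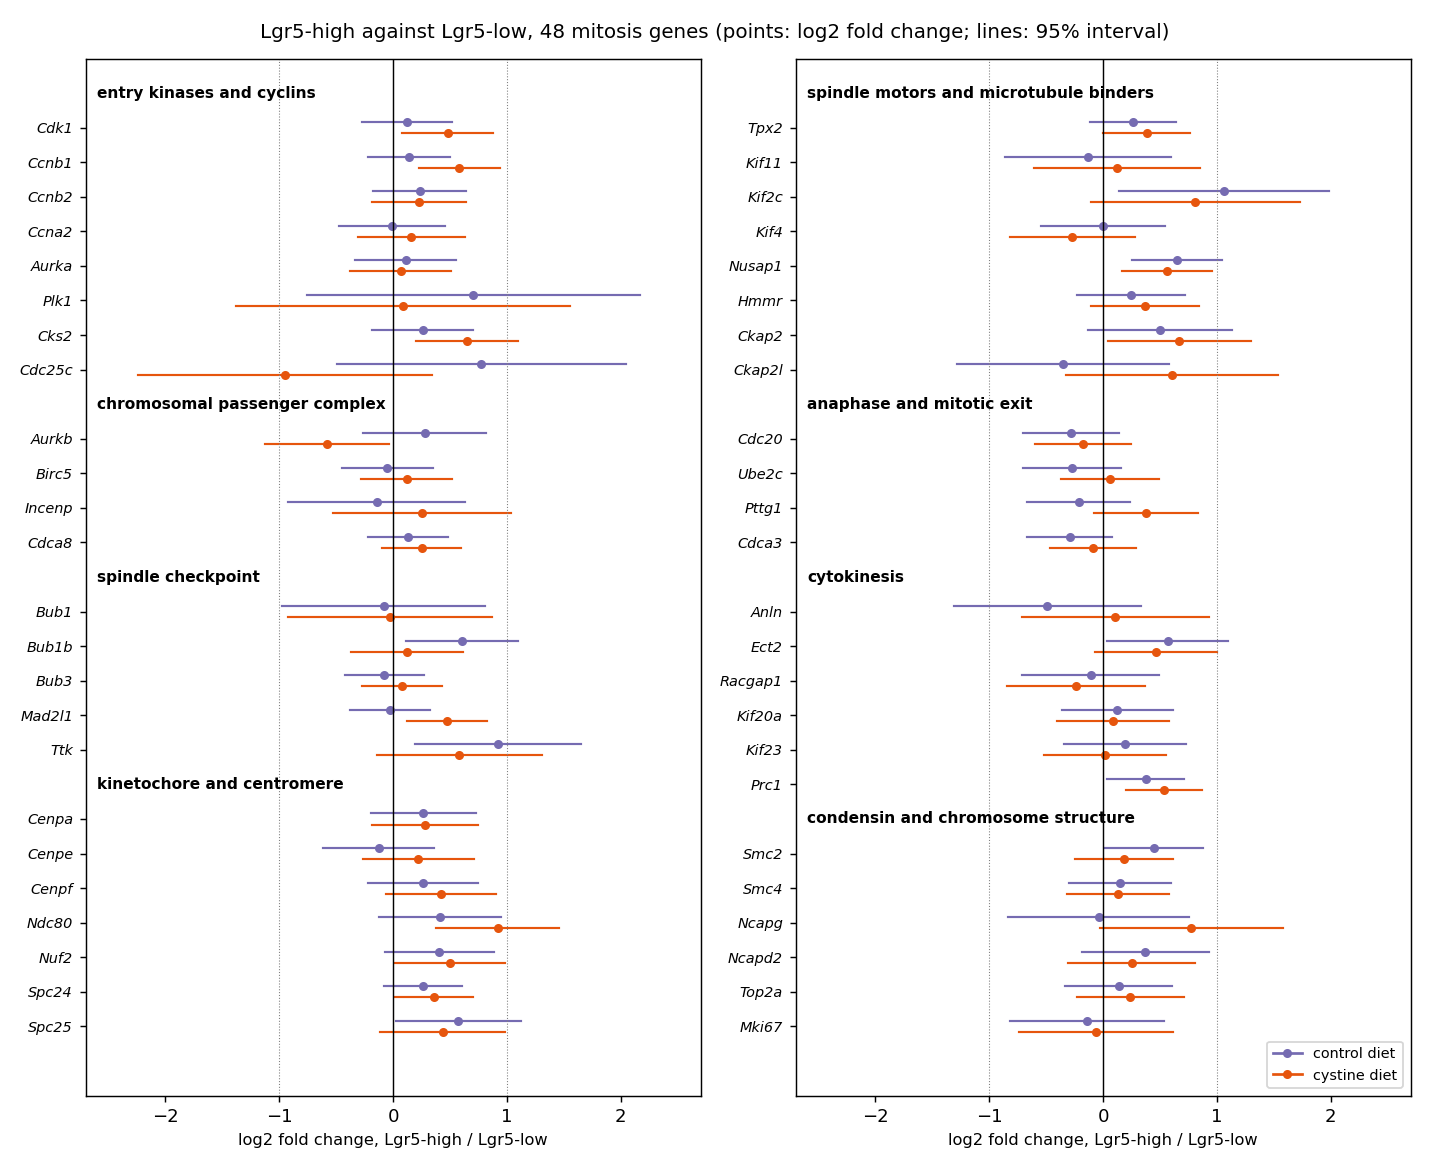
Log2 fold change of Lgr5-high against Lgr5-low cells (horizontal axis) for the 48 members (rows, by role), on the control and the cystine diet (colours), with 95% intervals that are not adjusted for multiple testing (lines). Most points lie to the right of 0, with medians of 0.14 and 0.24, and most intervals cross 0.

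Other genes of the cell cycle, from lists kept apart from the members, were fitted in the same model. Of 47 tested genes with other mitotic roles, 1 passed on the control diet and 2 on cystine, all higher in Lgr5-high cells. These were 2.13% and 4.26%, against 0.784% and 1.10% of all tested genes called higher. Stmn1, a microtubule destabiliser, rose on both diets, by 0.66 ± 0.16 (190 to 433 against 367 to 498 CPM, edgeR adjusted p = 0.0189) and 0.74 ± 0.16 (223 to 346 against 390 to 567.7 CPM, adjusted p = 0.00614). Ckap5, a microtubule polymerase, rose on cystine by 0.75 ± 0.19 (41.5 to 97.9 against 91.9 to 175 CPM, edgeR adjusted p = 0.0193). The medians of this list were 0.25 on each diet.

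Of 42 S phase genes, which serve DNA replication, 0 passed in either population comparison in edgeR, with 8 and 9 higher (19.0% and 21.4%) and 1 and 1 lower (2.38% each) at an unadjusted p under 0.05, beside the shares of all tested genes given above. Their median log2 fold change was 0.26 on control diet and 0.04 on cystine. Of 18 other G2/M regulators, 17 subunits of the anaphase-promoting complex, 12 cohesin genes and 14 tested cell cycle inhibitors, 0 passed in edgeR on either diet. At an unadjusted p under 0.05 the control diet gave Pkmyt1, Wapl and Cdkn2b, all lower in Lgr5-high cells. They were 5.56% of the G2/M regulators, 8.33% of the cohesin genes and 7.14% of the inhibitors, against 6.94% of all tested genes. The cystine diet gave Anapc13 and Cdc26, both higher (11.8% of the anaphase-promoting complex genes, against 6.80%). It also gave E2f4, Nfyc, Cdkn1a, Cdkn1c and Cdkn2b, all lower. These were 11.1% of the G2/M regulators and 21.4% of the inhibitors, against 8.72% of all tested genes. Among 13 G1 cyclins, kinases and factors, Myc rose by 1.22 ± 0.25 (edgeR adjusted p = 0.00533) and E2f2 fell by 1.86 ± 0.46 (edgeR adjusted p = 0.0253) in Lgr5-high cells on the control diet. They were 15.4% of this list, against 1.80% of all tested genes. On cystine 0 of the 13 passed in edgeR.

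The second question is whether cystine feeding moved these transcripts within a population. In Lgr5-high cells, 31 of 48 members had a positive value and the median log2 fold change was 0.12, against -0.02 for all tested genes. In edgeR 0 of 48 passed an adjusted p of 0.05, where 0.168% of all tested genes did, every one of them higher. DESeq2 and limma-voom also called 0. At an unadjusted p under 0.05, 3 were higher (Ube2c, Ckap2 and Ckap2l, 6.25%) and 0 lower, against 2.15% and 2.13% of all tested genes. Without replicate 7 of the Lgr5-high cells on cystine the members' median was 0.02.

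Ube2c stood at 25.98 to 49.3 CPM (median 30.8) on control diet and 40.5 to 73.0 CPM (median 49.2) on cystine in Lgr5-high cells. Every cystine library exceeded the control median, and the ranges overlapped. The log2 fold change was 0.54 ± 0.21 (edgeR adjusted p = 0.903). Ckap2, a spindle-pole protein, stood at 3.54 to 17.3 CPM (median 12.4) and 15.7 to 24.3 CPM (median 20.6), a difference of 0.77 ± 0.31 (edgeR adjusted p = 0.926).

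Ckap2l, a relative of Ckap2 on mitotic spindles, stood at 13.4 to 33.1 CPM (median 19.8) on control diet and 18.8 to 137 CPM (median 26.4) on cystine in Lgr5-high cells. The highest value came from replicate 7 alone, since the next library was at 31.8 CPM. The log2 fold change of 0.97 ± 0.46 (edgeR adjusted p = 0.99999) became 0.24 ± 0.37 without that library. Cdc25c had the largest negative value, -1.24 ± 0.64, with 1.58 to 8.90 CPM on control diet and 1.05 to 4.13 CPM on cystine (edgeR adjusted p = 0.99999).

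The entry genes Ccnb1 and Cks2 had diet values of 0.35 ± 0.18 and 0.35 ± 0.22 in Lgr5-high cells. Ccnb1 stood at 257 to 364 CPM (median 320) on control diet and Cks2 at 205 to 325 CPM (median 221), and their cystine ranges are given above. Mki67 and Top2a had values of 0.05 (95% interval -0.63 to 0.73) and -0.03 (-0.50 to 0.44). The summed macrophage markers given above differed between the same groups, and of the 11 tested, 8 passed (higher on cystine). With a macrophage score as a term the members' median diet value was 0.26.

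In Lgr5-low cells the members' diet values centred on 0. Of 48, 26 had a positive value, the median was 0.02 (all tested genes -0.00), and 0 passed an adjusted p of 0.05 in edgeR, DESeq2 or limma-voom, as did 0% of all tested genes in edgeR. Only Aurkb, higher on cystine, had an unadjusted p under 0.05 there (2.08% of members higher and 0 lower, against 1.75% and 1.22% of all tested genes). It stood at 6.41 to 23.3 CPM (median 17.6) on control diet and 16.8 to 32.8 CPM (median 23.3) on cystine (0.63 ± 0.27, edgeR adjusted p = 0.9998), with overlapping ranges. The 95% intervals lay within a 2-fold change for 40 members in Lgr5-low and 41 in Lgr5-high cells, and within 1.5-fold for 17 and 12.

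The difference between the diet effects of both populations was tested directly as an interaction. Again 0 of 48 members passed in edgeR, as did 0% of all tested genes, and DESeq2 and limma-voom called 0 members. The median difference was 0.10, against -0.03 for all tested genes. At an unadjusted p under 0.05, Mad2l1, the checkpoint inhibitor of Cdc20, had a positive value (0.50 ± 0.25) and Aurkb a negative one (-0.86 ± 0.38), both with an edgeR adjusted p of 0.9998. These 2.08% of members in each direction stand beside 1.46% and 1.86% of all tested genes. Mad2l1 stood at 108 to 215 CPM (median 125) and 95.4 to 166 CPM (median 130) in Lgr5-low cells on control and cystine diet, and at 108 to 180 CPM (median 156) and 147 to 253 CPM (median 157) in Lgr5-high cells. All 4 ranges overlapped.

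**Figure D4:**
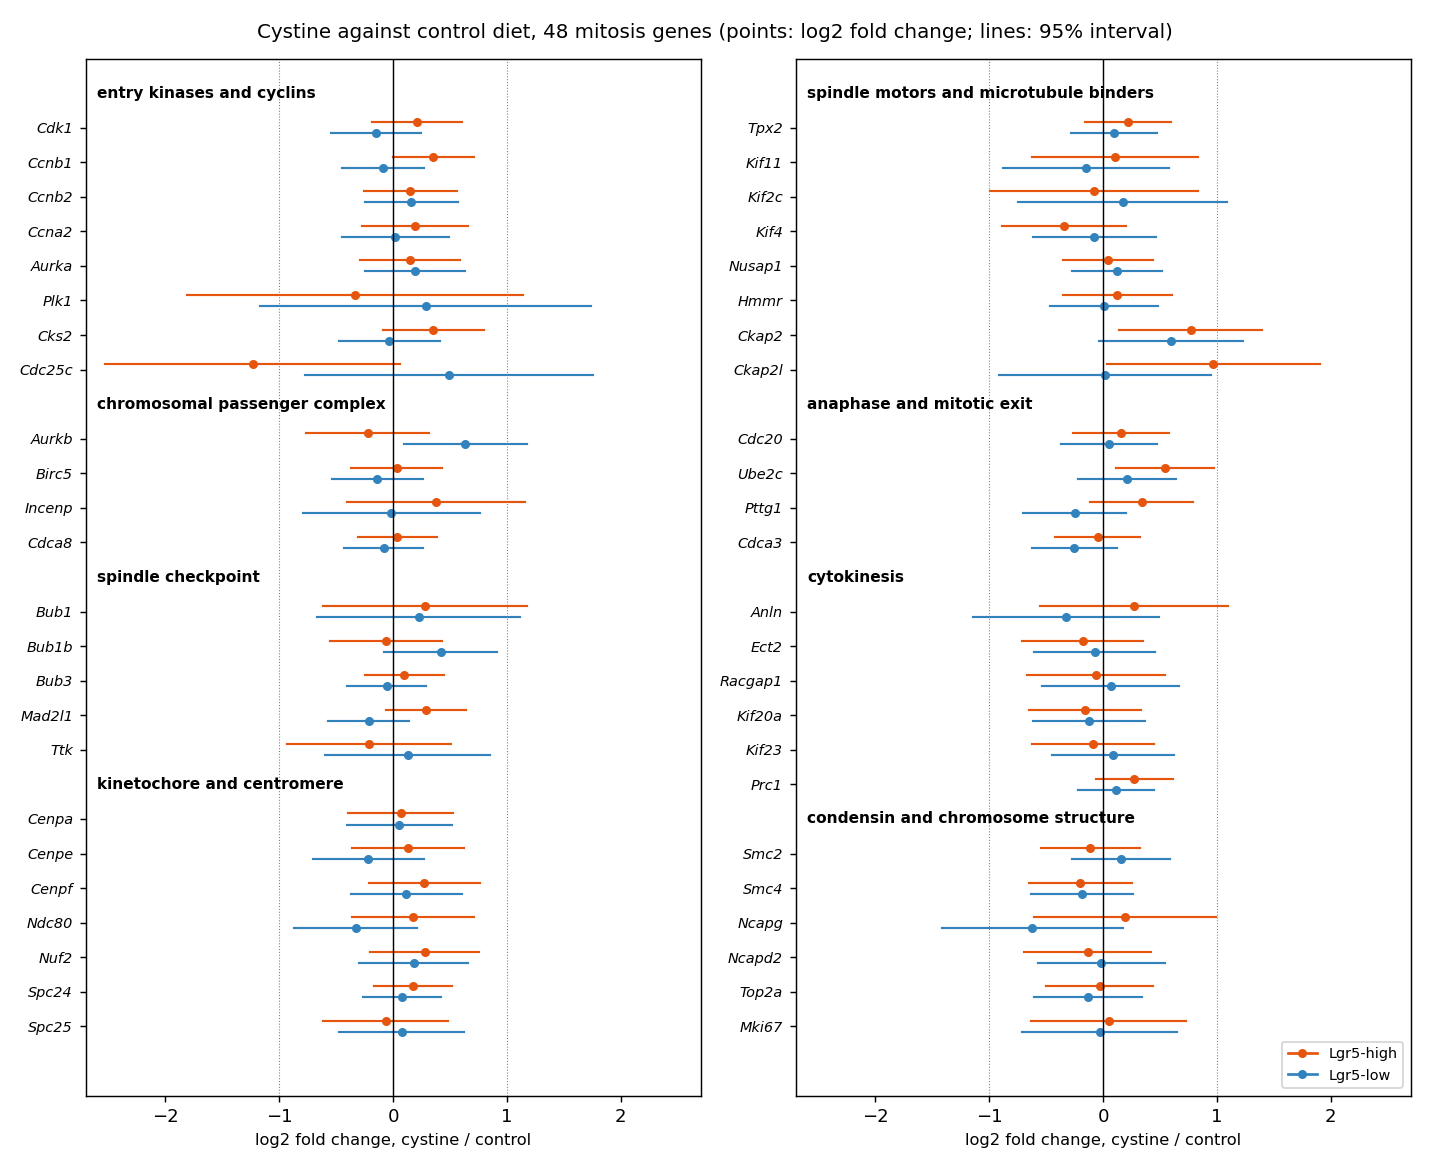
Log2 fold change of cystine against control diet (horizontal axis) for the 48 members (rows, by role), in Lgr5-high and Lgr5-low cells (colours), with 95% intervals that are not adjusted for multiple testing (lines). The points scatter around 0, with medians of 0.12 and 0.02, and the widest intervals belong to Plk1, Cdc25c and Ckap2l.

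Among S phase genes in Lgr5-high cells, 10 of 42 were positive on cystine (23.8%, against 47.3% of all tested genes). Their median was -0.19, against -0.02 for all tested genes, and 0 passed in edgeR. At an unadjusted p under 0.05, 1 was higher and 5 were lower (2.38% and 11.9%, against 2.15% and 2.13% of all tested genes). The difference between this list and the members was not tested. Neither the other mitosis genes, nor the G1, cohesin, anaphase-promoting complex, G2/M regulator or inhibitor lists held a gene that passed for diet in either population in edgeR.

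The spread between libraries of a group differed between groups. The median coefficient of variation of the 48 members was 41.2% in Lgr5-low cells on control diet, 29.4% in Lgr5-low cells on cystine, 25.1% in Lgr5-high cells on control diet and 24.2% in Lgr5-high cells on cystine. For all tested genes it was 55.4%, 45.7%, 41.9% and 47.6%. The 2 sets were not matched for level, whose median was 42.6 CPM for the members and 8.83 CPM for all tested genes. Spc24 of the Ndc80 complex varied least (14.9% on average over the groups) and Plk1 most (76.6%). In Lgr5-high cells on cystine, replicate 7 lay above its group's median for 39 of 48 members and replicate 6, the shallowest library (2.75 M), for 6. Replicates 2 and 3 of that group, at 3.39 M and 3.47 M, lay above for 24 and 16. In Lgr5-low cells on cystine, replicate 7 lay above for 4, and it held the highest enterocyte marker level of any library (33865 CPM). Replicates 2 and 6 of that group, at 17904 and 17293 CPM, lay above for 9 and 32. A relation of the members to depth or to enterocyte markers was not tested.

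Some members differed, in part of the groups, along a division of the libraries that the labels do not give. Libraries with Xist, the transcript of the inactive X chromosome, at most 50 CPM were control replicates 1 to 3 and cystine replicates 1 and 2 of both populations, 10 in all, and the other 18 exceeded it. This division was made after the data had been seen, and the sex of the animals and anything else these replicate numbers share cannot be told apart. Pttg1 stood at 404 to 479 CPM in the 3 low-Xist and 192 to 234 CPM in the 4 high-Xist libraries of Lgr5-low cells on control diet, and at 321 to 483 against 180 to 210 CPM on cystine. Mki67 went the other way, at 51.0 to 116 CPM against 157 to 245 CPM on control diet. Neither pair of ranges overlapped in Lgr5-low cells on control diet. On cystine the Mki67 ranges of Lgr5-low cells overlapped, at 51.4 to 132 against 95.1 to 239 CPM. In Lgr5-high cells on control diet Mki67 overlapped (82.2 to 162 against 111 to 192 CPM) and Pttg1 did not (282 to 327 against 196 to 271 CPM). In Lgr5-high cells on cystine Pttg1 overlapped (286 to 459 against 225 to 405 CPM) and Mki67 did not (69.7 to 97.8 against 135 to 186 CPM).

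The kinesin Kif11, which pushes spindle poles apart, stood at 6.66 to 17.6 CPM in low-Xist and 45.9 to 56.5 CPM in high-Xist Lgr5-low libraries on control diet, and Cdk1 at 190 to 264 against 72.6 to 133 CPM. Kif11 overlapped in Lgr5-high cells, at 26.6 to 30.4 against 25.98 to 42.4 CPM on control diet and 16.1 to 32.6 against 19.5 to 50.1 CPM on cystine. Cdk1 overlapped in Lgr5-low cells on cystine, at 143 to 166 against 106 to 145 CPM, and not in Lgr5-high cells on either diet. These genes were chosen after their values were seen. How many members, or tested genes, had ranges apart is not given here. Averaged over the 4 groups, the difference in log2 CPM, low-Xist minus high-Xist, ran from -1.17 for Ncapg to 0.68 for Pttg1. It had the same sign in all 4 groups for 9 members that were lower and 7 that were higher, 18.8% and 14.6%, against 21.99% and 10.8% of all tested genes.

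The difference was most negative among members with long exonic sequence. This length is the union of all annotated exons of a gene, which can exceed that of any single transcript. Among the 16 members with the longest exonic sequence (5860 to 15433 bases, such as Cenpf, Mki67, Top2a and Cenpe) its median was -0.46 and 13 were lower. Among the 16 shortest (692 to 4083 bases, such as Cks2 and Pttg1) the median was -0.16 and 9 were lower, and among the 16 between them the median was -0.10 and 9 were lower. All tested genes with a length were split in the same way into 3 parts of 4158 genes. Their median was -0.49 in the longest part (3333 lower), 0.004 in the shortest (2070 lower) and -0.26 between them (2807 lower). The long members thus had values close to those of long genes in general. Over the 48 members Spearman's rho between length and difference was -0.38, and over 12474 tested genes -0.30, so a relation of like sign ran through all tested genes. By group the members' rho was -0.44 and -0.43 in Lgr5-low cells on control and cystine diet, and -0.15 and -0.25 in Lgr5-high cells. For all tested genes it was -0.30, -0.19, -0.13 and -0.15 in the same order. These are correlations across genes of the same libraries and are given with no test.

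The summed level of the 16 longest members divided by that of the 16 shortest differed between the same libraries. In Lgr5-low cells on control diet this ratio was 0.398 to 0.541 in the 3 low-Xist libraries and 1.01 to 1.12 in the 4 others. It was 0.417 to 0.539 and 0.709 to 0.876 in Lgr5-low cells on cystine, and 0.563 to 0.749 and 0.762 to 0.857 in Lgr5-high cells on control diet. In Lgr5-high cells on cystine it was 0.572 to 0.610 and 0.589 to 0.870, the only group in which the ranges overlapped.

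**Figure D5:**
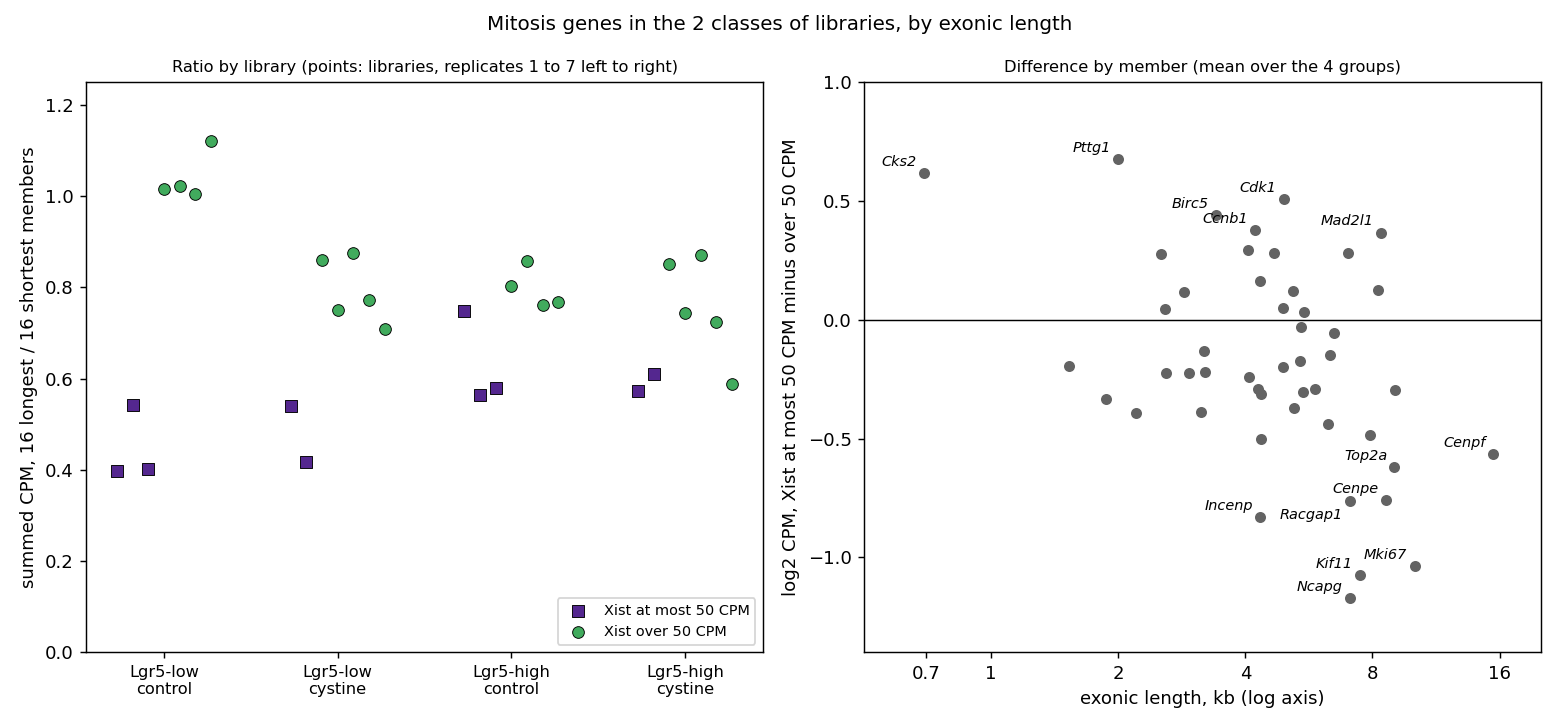
Left, ratio of the summed CPM of the 16 longest to the 16 shortest members in each library (points), by group, with squares for the 10 libraries with Xist at most 50 CPM and circles for the other 18. Right, difference in log2 CPM between these classes (vertical axis, mean over the 4 groups) against exonic length in kb (log axis) for each of the 48 members. The squares lie lowest in each group but Lgr5-high on cystine, and the longest members lie mostly below 0.

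The population comparison was repeated within each class of libraries. In the high-Xist libraries the members' median log2 fold change was 0.21 on control diet (4 against 4 libraries, Nusap1 called, higher) and 0.17 on cystine (5 against 5, Cks2 and Pttg1 called, higher). In the low-Xist libraries it was 0.39 on control diet (3 against 3, 0 called and 10 at an unadjusted p under 0.05) and 0.58 on cystine (2 against 2, Nusap1 called, higher), each in edgeR. Called higher among all tested genes were 2.99% and 1.93% in the high-Xist libraries and 0.0418% and 0.234% in the low-Xist ones, and 9.56% of all tested genes had an unadjusted p under 0.05 in the low-Xist libraries on control diet. With the class as a term over all libraries, 1 member passed on control diet (Nusap1) and 4 on cystine (Ccnb1, Cks2, Ndc80 and Prc1), all higher in Lgr5-high cells, against 1.70% and 2.35% of all tested genes. Within the classes and with the term, 0 members passed for diet.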

How the data were processed

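RNA of 28 libraries was measured by RNA-seq with poly(A) selection and a strand-specific kit, per the labels' protocols. The deposited values are expected counts per gene from Salmon 1.3.0 on mm10, per the submitters' processing notes, and the table gives them as whole numbers; the transcript annotation behind them is not given in the sources used here. Rows with an identifier but no gene symbol held at most 0.0111% of a library's counts and stayed in the fit.

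Groups came from the sample titles. Counts were tested in edgeR 4.0.16 (R 4.3.3) with TMM factors, filterByExpr and a robust quasi-likelihood fit of all 28 libraries, with a mean for each group, two-sided, with Benjamini-Hochberg adjustment over 12495 genes and a threshold of 0.05. CPM are counts over the effective library size. The SE is the log2 fold change over the root of the F statistic. Log2 CPM used a prior count of 2. The code was tested on simulated data. Alternatives were DESeq2 1.42.0, limma-voom (limma 3.58.1), RLE factors, other filters, only the groups compared, replicate blocks, class and macrophage terms, no libraries under 5 M counts, each library left out, and each Xist class alone, which was added after seeing the data. Leaving a class or a replicate out changes the number of genes that pass the filter.

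Coordinates and exonic lengths (union of exons) came from GENCODE M21 for 51485 of 54354 genes (94.7%), and all 48 members matched. The members and gene lists were chosen with earlier results of these data known. Members named with full values were those with the highest level per kilobase of each role, Mki67, Top2a, Cdk1 and the 3 with the lowest p in each comparison.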

Additional observations from a re-analysis of the deposited data

Results flagged for a closer look

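Over 80 sets of 7 libraries (each named member in each group, and summed levels), 3 held a library at 1 end whose gap to the next exceeded Dixon's 95% limit for 7 values, a limit that chance passes in about 1 of 20 sets. In Lgr5-low cells on cystine, Cdk1 was at 106 CPM in replicate 7, and the next lowest library was at 141 CPM. In Lgr5-high cells on cystine, Ckap2l was at 137 CPM in replicate 7, against 31.8 CPM in the next library, and in Lgr5-low cells on cystine it was at 65.4 CPM in replicate 3, against 31.7 CPM.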

How the results depend on the processing

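No member passed for diet or for the interaction in any of the 40 settings tried for each. For Lgr5-high against Lgr5-low cells every call was higher, and the number of members called, 0 as reported, changed as follows. On control diet it was 1 (Nusap1) with limma-voom, the replicate block within diet, the class term, the macrophage term and within the high-Xist class, and 0 to 1 with each library left out (1 without Lgr5-low control replicate 3). On cystine it was 3 with DESeq2, 4 with limma-voom, 1 with RLE factors, 1 with only the groups compared, 1 with the replicate block, 2 with the replicate block within diet, 4 with the class term, 2 without libraries under 5 M counts, 2 within the high-Xist and 1 within the low-Xist class. With each library left out it was 0 to 2: 1 without Lgr5-low control replicates 2 or 7 (Ndc80), 2 without Lgr5-low cystine replicate 1 (Ccnb1 and Ndc80) and 2 without Lgr5-high cystine replicate 3 (Ndc80 and Prc1). In those fits 124 to 456 of all tested genes were called on control diet and 169 to 413 on cystine. Shares of all tested genes are given above only for DESeq2, limma-voom, the class term and each Xist class. The members' counts in the other settings have no share of their own beside them and are not read as a result about the members. The cause of these changes was not tested. Same-numbered libraries of both populations correlated in their deviations from the group means by -0.08 to 0.24, over 0.1 in 5 of 14 pairs, and 7 of 14 correlated best with their own number. The Xist classes fell on the same numbers in both populations. Since the labels name no shared animal, the reported fit treats the libraries as unpaired. Whether the numbers mark shared animals was not settled. The members' median log2 fold change became 0.39 and 0.58 for the populations on control and cystine diet and 0.34 for the interaction within the low-Xist class. It was 0.04 on control diet without libraries under 5 M counts. Single libraries also moved it by over 1.5 times: on control diet from 0.14 to 0.23 without Lgr5-low control replicate 3, on cystine from 0.24 to 0.15 without Lgr5-low cystine replicate 1 and 0.16 without Lgr5-high cystine replicate 7, and for diet in Lgr5-high cells from 0.12 to 0.07 and 0.02 without Lgr5-high cystine replicates 4 and 7. With each library left out it was -0.05 to 0.11 for diet in Lgr5-low cells and 0.02 to 0.19 for the interaction. All genes called numbered 31 to 800 (225 reported) and 108 to 910 (330) for the populations and 0 to 89 (21) for diet in Lgr5-high cells. Of 19 named members, 8, 5, 7, 12 and 8 changed sign in at least 1 setting, in the order control and cystine populations, diet in Lgr5-high and Lgr5-low cells, and interaction; none of these had passed the test. Depth limits Plk1 and Cdc25c most, with libraries at 0 counts.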
